A study of Macaca mulatta with 95 samples.

Results

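The zinc finger genes described here are those whose symbol is ZNF followed by a number and whose level, averaged over 95 single cells of rhesus macaque (Macaca mulatta) embryos, reached 5 RPKM (reads scaled by gene length in kilobases and by megareads of depth). They were chosen by that mean level, with ZNF280A and ZNF296 left out, and 103 of the 389 ZNF symbols in the table met the rule. Symbols with a trailing letter were counted because the rule itself names ZNF280A, and this reading added ZNF286A. Among all 16049 genes of the table, 6434 reached the same mean level, and these serve as the background for each count below. Since the level chose the genes, the levels are a description, and a gene that reached the level through 1 group of cells had to differ between groups. The background genes share that property. They were not matched to the ZNF genes for mean level or for the number of cells with a value. In nearly every cell a smaller share of the ZNF genes than of the background reached 1 RPKM. What part this has in the differences between ZNF and background counts was not tested.

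The embryos came from oocytes of hormone-stimulated females, fertilised and cultured in vitro in HECM-9 medium with serum, and the labels name no strain, genotype or further treatment. Cells represent 7 stages, and the membrane dye PKH2 told outer from inner cells. Outer and inner cells number 3 and 2 at the 16-cell stage (day 3), 5 and 5 in the early morula (day 4), 5 and 5 in the late morula (day 4.5), 6 and 10 in the early blastocyst (day 5) and 5 and 12 in the middle blastocyst (day 5.5). The late blastocyst (day 6) is represented by 19 cells titled inner and the hatched blastocyst (day 7) by 18. By the clusters described below, 5 of these late and 8 of these hatched cells were trophectoderm-like despite that title. Cell titles carry 1 of 5 letters (A, B, D, G, H) that the labels do not explain. The 16-cell stage is all B, the early morula all H and the late morula all D, outer early blastocyst cells are A and outer middle blastocyst cells B, so stage and letter cannot be told apart before the blastocyst. Letters G and H hold the inner late and hatched cells, and inner early and middle blastocyst cells are spread over A, B, G and H. For 9 late blastocyst cells the source name says hatched. Labels do not tie cells to a mother or embryo. Each group is therefore treated as 1 sample, cells do not stand for replicates, no comparison carries a test, and the SD beside a mean is the spread over cells.

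C2H2 zinc finger proteins bind DNA or RNA through repeated finger units and are among the largest groups of genes in mammalian genomes. Many carry a KRAB box, through which they recruit a co-repressor and silence chromatin, often at transposable elements. Others lack the box and act as activators, or work in ribosome assembly, RNA handling or chromosome segregation. In mammalian embryos the cleavage stages are known for the activation of zygotic transcription and for the resetting of chromatin at transposable elements. The family grew by tandem duplication, so near-identical copies can share reads. How such reads were counted is not given in the sources used here, and values of close copies (such as ZNF92, ZNF257, ZNF430 and ZNF680) are uncertain for this reason.

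Reads recovered from the steps of the values ran from 1.55 to 13.8 megareads per cell, with a median of 8.05. The late morula held 5 of the 7 cells under 4 megareads. The 3 sperm genes examined stood at 0 in every cell. The summed level of 7 cumulus and granulosa genes was at most 22.5 RPKM and that of 3 blood genes at most 22.1 RPKM in any cell. No 2 cells held identical values.

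Levels differed widely among the genes. RPKM is scaled by gene length, but how evenly reads cover the transcripts was not examined. The order of different genes by level is therefore approximate. The mean was above 100 RPKM for 4 of them, between 10 and 100 for 39 and between 5 and 10 for 60, with a median of 8.75. ZNF593, the relative of a yeast factor that helps export the large ribosomal subunit, had the highest mean, at 719 RPKM (SD over cells 716). ZNF581, a small and little-studied finger protein, followed at 528 (637). ZNF207, which binds BUB3 at kinetochores and supports spindle assembly, stood at 139 (103), and ZNF259 (also known as ZPR1, a partner of the SMN protein) at 111 (96.9). ZNF706, a small protein reported to help mouse stem cells leave self-renewal, averaged 98.2 (85.6). The KRAB gene ZNF669 averaged 76.3, ZNF511 67.2, ZNF574 57.7, ZNF408 (a gene of retinal vessel disease) 44.2 and ZNF414 42.3. ZNF622, a factor of large-subunit maturation, stood at 34.3, and ZNF598, a ubiquitin ligase for collided ribosomes, at 31.5. Just inside the level were ZNF322 (5.04), ZNF564 (5.03) and ZNF77 (5.01), and just outside ZNF354A (4.98), ZNF473 (4.76) and ZNF592 (4.74).

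Most of the genes were on in some cells and near 0 in others. Of the 9595 values of the 101 genes whose reads were recovered, 28.5% were 0, and 19.7% rested on 1 to 10 reads. ZNF581 and ZNF706 are not in these shares. ZNF593, ZNF581, ZNF207, ZNF259, ZNF706, ZNF823 and ZNF562 were above 0 in each of the 95 cells. The median gene was above 0 in 68 cells, and ZNF879 in the fewest, 23. A single cell carried over 25% of the summed level of 10 genes: ZNF124 took 70.2% of its sum from the late blastocyst cell G-04, ZNF32 53.5% from the outer early blastocyst cell A-09, ZNF691 50.0% from the inner early blastocyst cell A-08 and ZNF692 49.0% from the outer middle blastocyst cell B-03. Without its highest cell, 23 of the 103 genes fall below 5 RPKM. Over the 12 stage and position groups the most even levels were those of ZNF259, ZNF623, ZNF598 and ZNF428, and the least even those of ZNF701, ZNF92, ZNF446 and ZNF32.

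**Figure D1:**
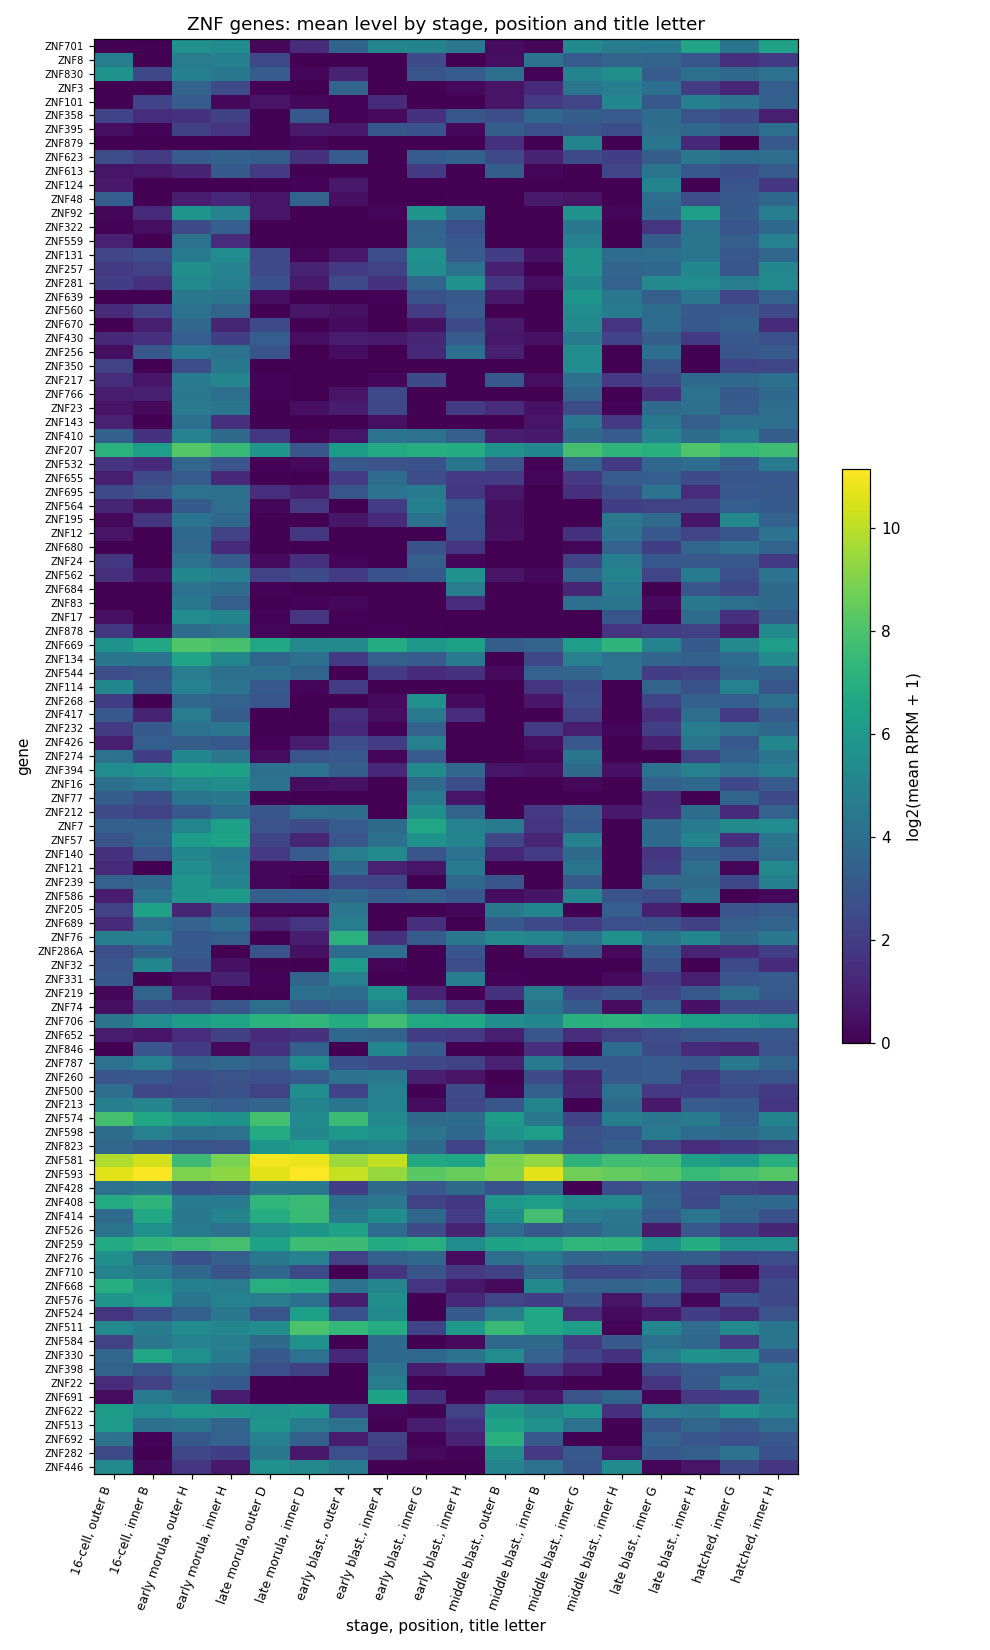
Mean level of each of the 103 ZNF genes (rows, ordered by similarity) in the 18 combinations of stage, position and title letter (columns), as log2(mean RPKM + 1). ZNF593, ZNF581 and ZNF207 are bright in most columns, and a large block of genes is bright in the 2 early morula columns and dark in the late morula and in letters A and B.

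The early morula held the widest set of ZNF transcripts. At 1 RPKM or more, early morula cells held between 68 and 93 of the 103 genes, with a median of 81. The 5 cells of the 16-cell stage held 61 to 70 (median 66), late morula cells 27 to 47 (median 38), early and middle blastocyst cells a median of 36 each, late blastocyst cells 38 and hatched cells 59. Within a stage the letters differed: late blastocyst cells held 19 to 49 in letter G and 60 to 68 in letter H, and inner early blastocyst cells averaged 31.6 in letter A, 42.3 in G and 54.5 in H. The 4 late blastocyst cells of letter H all carry a source name that says hatched, so their stage is in doubt. The early morula cells are all of letter H, so stage and letter cannot be told apart in these medians. No late morula cell reached the lowest early morula or 16-cell cell. The number of all genes of the table at 1 RPKM or more also peaked in the early morula, with a median of 6643, against 5362 at the 16-cell stage and 3719.5 in the late morula. Hatched cells, with a median of 5890, held more genes than the 16-cell stage but fewer ZNF genes. Thinning each cell to 1.55 megareads changed the medians little. With the 101 genes that could be thinned, the early morula median went from 79.0 to 78.95 and the late morula median from 36.0 to 36.35. Across cells, the level of 57 genes (55.3%) had a Spearman rho above 0.3 with the number of genes detected, against 48.1% of the background. All genes share the library of each cell, and cells share letters, so this is a description. The 1 gene under -0.3 was ZNF581, at -0.44.

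**Figure D2:**
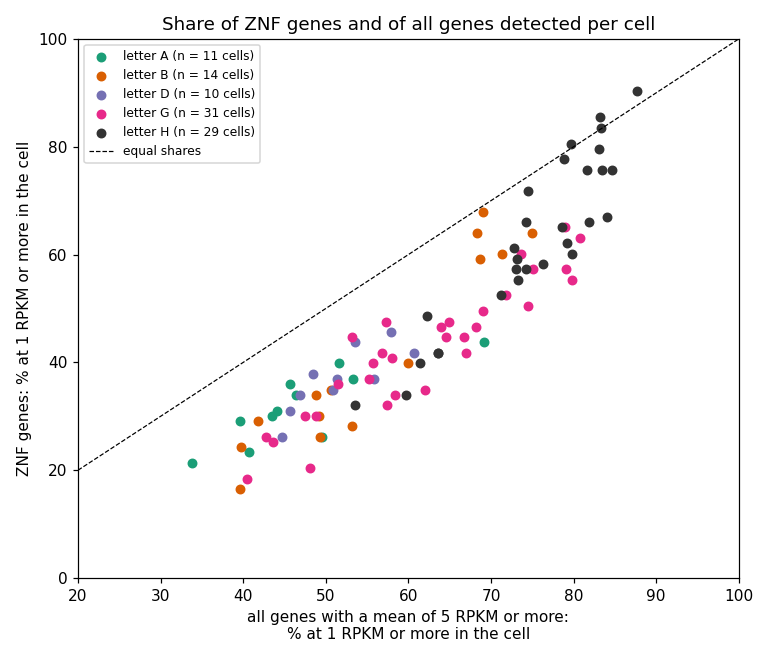
Share of the ZNF genes (y axis, %) against the share of all 6434 genes with a mean of 5 RPKM or more (x axis, %) that reached 1 RPKM in each of the 95 cells, coloured by title letter. Nearly every cell lies below the dashed line of equal shares. The early morula cells (letter H) lie in the upper right. Many hatched cells of letters G and H lie near each other, and middle blastocyst cells of letter H lie lower.

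The share of the summed level taken by 2 genes differed by stage. ZNF593 and ZNF581 together made up a median of 64.3% of the summed RPKM of the 103 genes at the 16-cell stage, 22.8% in the early morula, 65.8% in the late morula and 17.6% in hatched cells. In the 5 cells of the 16-cell stage ZNF593 stood at 1344, 1645, 1888, 1965 and 2417 RPKM. The 10 early morula cells ran from 335 through a median of 580 to 755, and the 10 late morula cells from 1031 through 1934 to 3180. Thus neither neighbouring stage overlapped the early morula. ZNF581 read 820, 921, 978, 1145 and 1554 at the 16-cell stage, 142 to 790 (median 313) in the early morula and 916 to 2857 (median 1932) in the late morula, again without overlap. Later, inner cells differed by letter at the same stage: ZNF581 averaged 1125 (SD 530) in the 5 inner early blastocyst cells of letter A, 104 (66.6) in the 3 of letter G and 92.2 (33.0) in the 2 of letter H. In hatched cells ZNF593 averaged 235 (110) in letter G and 294 (159) in letter H. ZNF593 was below 1 RPKM in 3 late blastocyst cells, all of letter G, of which 2 fell in the hypoblast-like cluster (0.36 and 0.95 RPKM) and 1 in the trophectoderm-like cluster (0.24).

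ZNF207 ran the other way from ZNF593 and ZNF581 in the morula. It read 49.9, 50.8, 95.2, 181 and 185 RPKM at the 16-cell stage, 105 to 342 (median 251) in the early morula and 0.39 to 109 (median 11.0) in the late morula, where a single cell passed the lowest early morula cell. ZNF706 averaged 27.6 (SD 15.5) at the 16-cell stage, 79.3 (26.0) in the early morula and 150 (72.4) in the late morula, with overlapping cells. ZNF259 averaged 130 (28.6), 210 (104) and 142 (100), and its ranges overlapped at each step.

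**Figure D3:**
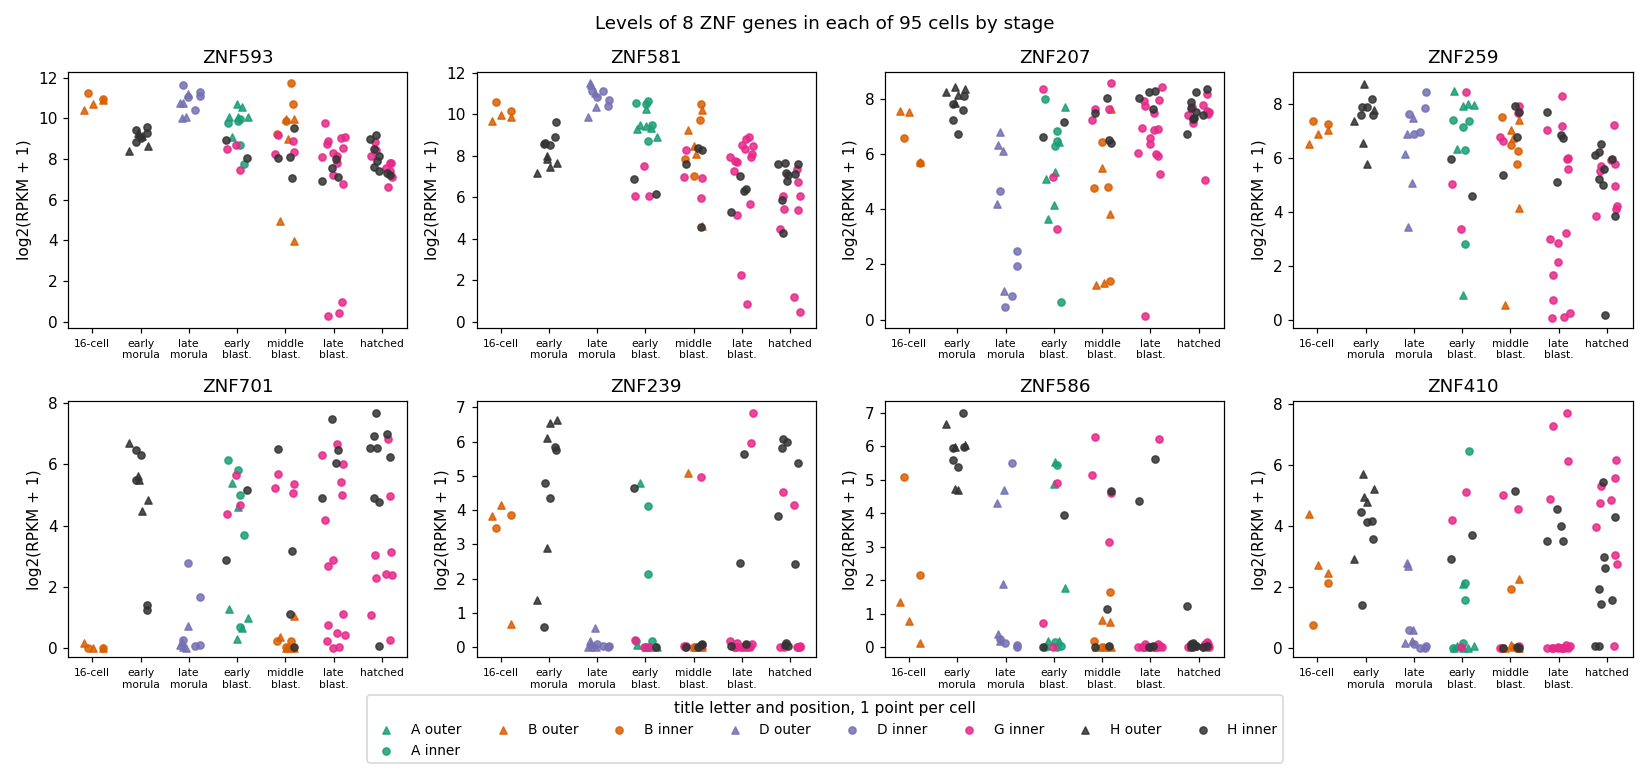
Level of 8 ZNF genes in each of the 95 cells as log2(RPKM + 1) by stage, 1 point per cell, with colour for the title letter and shape for position (triangle outer, circle inner). ZNF593 and ZNF581 dip in the early morula, where ZNF701, ZNF239 and ZNF586 are high, and in the late morula (letter D) ZNF593 and ZNF581 are high and the other 3 lower.

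The comparison of the early morula with the 16-cell stage asks which ZNF genes differ around the time of compaction. Each gene was given a log2 ratio, from the mean RPKM of both groups with 1 added to each mean, and a gene counted as higher or lower at 2-fold or more. Of the 103 genes, 57 (55.3%) were higher and 18 (17.5%) lower in the early morula, with a median log2 ratio of 1.15. Over the background, 44.2% were higher and 21.0% lower, and the median was 0.66. With median-of-ratios size factors over all genes the split of the ZNF genes narrows to 34 higher and 28 lower, and their median to 0.29 beside -0.04 for the background. For 10 genes the cells of the 2 stages did not overlap: ZNF701, ZNF639, ZNF92, ZNF562, ZNF281, ZNF57 and ZNF669 were higher and ZNF593, ZNF581 and ZNF408 lower in the early morula, against 869 and 363 of the 6434 background genes.

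Genes near 0 at the 16-cell stage gave the largest differences. ZNF701, a KRAB gene, was listed at 0 in 4 of 5 cells of the 16-cell stage and at 0.118 RPKM in the fifth, and ran from 1.36 through 43.9 to 101 in the early morula, a log2 difference of 5.5. ZNF92, of the KRAB group that expanded in primates, read 0.0330, 0.0670, 0.324, 1.30 and 1.89 at the 16-cell stage and 1.98 to 101 (median 45.2) in the early morula, 4.65 higher. ZNF639, also called ZASC1, was at 0 in 4 cells and at 0.0185 in 1, and stood between 0.0246 and 36.5 (median 19.2) in the early morula, 4.37 higher. ZNF17 (4.92), ZNF121 (4.22) and ZNF684 (4.07) complete the 6 largest. ZNF281, which represses Nanog in mouse stem cells, was 3.18 higher. In the opposite direction ZNF408 read 60.8, 112, 140, 158 and 172 at the 16-cell stage and 0.0504 to 53.2 (median 20.2) in the early morula, a log2 ratio of -2.43. Of the others among the 6 lowest, ZNF276 was at -1.99, and ZNF446 (-3.26), ZNF205 (-2.70), ZNF32 (-2.17) and ZNF219 (-1.93) each moved most with 1 cell of the 16-cell stage. Leaving out the cell inner B-01 brings ZNF219 to -0.81, and leaving out the inner cell B-02 brings ZNF205 to -1.17.

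The late morula was then set beside the early morula. These 2 comparisons share the early morula cells, so a gene high there differs in both. Of the 103 genes, 24 were higher and 62 lower in the late morula, with a median log2 ratio of -2.04, while 20.9% of the background was higher and 47.0% lower, with a median of -0.81. This direction depends on scaling: with median-of-ratios size factors 42 were higher and 33 lower (median 0.22), because the background median moves from -0.81 to 1.51. Relative to the background median, the ZNF genes stood at -1.23 as deposited, at -1.29 with those factors and at -1.24 with factors over the 1159 genes above 0 in all cells. Among the 12 genes with the largest differences, each kept its direction under all 3 scalings. ZNF239 ran from 0.494 through a median of 40 to 98.0 RPKM in the early morula and from 0 through 0.0259 to 0.484 in the late morula, a log2 ratio of -5.32. ZNF92 had a ratio of -5.03, with late morula cells between 0 and 1.51. ZNF217, a partner of the CoREST repressor complex that is amplified in tumours, ran from 1.67 through 28.3 to 52.8 in the early morula and from 0 through 0.0330 to 0.240 in the late morula, a ratio of -4.75. ZNF57 stood between 32.3 and 131 (median 75.1) in the early morula and between 0.0241 and 9.67 (median 0.856) in the late morula, at -4.47. The cells of ZNF239, ZNF92, ZNF217 and ZNF57 did not overlap between the stages. In all, 3 of the 103 genes were higher and 8 lower without overlap, beside 81 and 698 of the 6434 background genes. ZNF121 (-4.97) and ZNF701 (-4.59) complete the 6.

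Among the genes higher in the late morula, ZNF408 stood between 62.1 and 357 RPKM (median 173) there, above every early morula cell, a log2 difference of 2.89. ZNF581 was 2.48 higher, with a mean of 1897 (SD 622) against 339 (193). ZNF446, a KRAB and SCAN gene, averaged 42.7 (62.2) against 1.52 (2.37), and ZNF823 62.6 (56.2) against 6.28 (5.22), both with overlapping cells. ZNF414 was 2.43 higher. ZNF219 was 2.62 higher in mean, but the inner cell D-08 carries this, and without it the value is 0.30. The highest group mean of a gene fell in the early morula for 38 of the 103 genes (36.9%) and for 20.9% of the background, and in the late morula for 15 (14.6%) and 14.4%.

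Because the late morula is all letter D and the 16-cell stage all letter B, the same genes were examined across letters in inner cells. Inner cells of the early and middle blastocyst were pooled without weights, 13 with letter G or H against 9 with A or B. The 5 cells of A are early and the 4 of B middle blastocyst cells, while G and H hold both stages. The summed level of 15 trophectoderm markers also differed. In inner middle blastocyst cells it ran from 26302 to 42032 RPKM in B, 689 to 2525 in G and 395 to 3221 in H. Stage mix and cell state were not separated from the letter. Of the 103 genes, 45 were higher and 27 lower in G and H, with a median log2 ratio of 0.61. In the background 43.6% were higher and 22.2% lower, and the median was also 0.61. With median-of-ratios size factors the split of the ZNF genes turns to 34 higher and 47 lower, beside a background median of -1.01. ZNF92, which was at most 1.89 RPKM in the 16-cell stage and 1.51 in the late morula, was between 0 and 0.657 RPKM in the 9 cells of A and B and averaged 31.0 (SD 55.0) in the 13 of G and H, a log2 difference of 4.86. ZNF639 (4.70), ZNF830 (4.70), ZNF560 (4.49), ZNF256 (4.08) and ZNF350 (3.78) followed. ZNF830, a splicing factor needed in the mouse preimplantation embryo, averaged 26.3 against 0.0485. The value of ZNF350 rests on the inner middle blastocyst cell G-10, without which it is 0.02. ZNF524 was lower in G and H (-4.53), at 1.83 (4.06) against 64.6 (93.7). ZNF22 (-3.88), ZNF576 (-3.11) and ZNF691 (-2.88) rest on the cell A-08 of the inner early blastocyst, without which they read -0.33, 0.22 and 2.36. ZNF219 stood at -3.17, and ZNF398 at -2.85 or at -0.40 without the inner early blastocyst cell A-03.

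The genes that were higher in letters G and H were largely those that were high in the early morula, although no cell is shared between these comparisons. Of the 45, 39 were higher and 1 lower in the early morula than at the 16-cell stage, and 40 were lower and 1 higher in the late morula than in the early morula. Of the 27 that were lower in G and H, 6 were higher and 10 lower in the early morula, and 16 were higher and 5 lower in the late morula. The background did likewise: of 2805 genes higher in G and H, 2061 were higher in the early morula and 2117 lower in the late morula. ZNF701 was at most 1.09 RPKM in every cell of letter B, at the 16-cell stage and in the middle blastocyst, and at most 5.82 in letter D. Its inner middle blastocyst cells averaged 39.7 (SD 7.69) in letter G and 24.8 (43.6) in letter H, and hatched cells of letter H 84.2 (61.8). Letter A was not low for ZNF701, since inner early blastocyst cells averaged 33.4 (28.6) there and 31.3 (15.8) in letter G.

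Letters G and H were also compared with each other among the same inner early and middle blastocyst cells, a comparison added after the data were seen. Of the 103 genes, 35 were higher and 20 lower with letter G (7 cells) than with letter H (6 cells), with a median of 0.18, beside 25.9% and 17.2% of the background and a median of 0.15. ZNF350 (4.60), ZNF268 (4.48), ZNF426 (4.09), ZNF274 (3.94) and ZNF622 (3.26) were the furthest in letter G, together with ZNF879, which averaged 18.0 RPKM (SD 46.4) there and was listed at 0 in the 6 cells of letter H. ZNF274, which recruits the methyltransferase SETDB1 to the ends of zinc finger genes, averaged 14.6 RPKM (SD 28.5) against 0.0191 (0.0158). The values of ZNF350 and ZNF879 rest on the middle blastocyst cell G-10, without which ZNF350 is at -0.00. Furthest in letter H were ZNF684 (-3.87), ZNF213 (-3.28), ZNF331 (-3.26), ZNF500 (-2.96), ZNF101 (-2.84) and ZNF205 (-2.81). ZNF205 reads -0.08 without the middle blastocyst cell H-10. For no ZNF gene were the cells of the 2 letters apart, beside 25 higher and 33 lower of the background genes.

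Within letter H, inner cells of the early morula and of the hatched blastocyst could be compared, although the labels do not explain the letter. All 9 hatched cells fall in the epiblast-like cluster described below. Stage and lineage therefore cannot be told apart in this comparison. Of the 103 genes, 21 were higher and 26 lower in the 9 hatched cells than in the 5 early morula cells, with a median log2 ratio of -0.27. In the background 22.3% were higher and 22.1% lower and the median was -0.02, and the shares of the ZNF genes by means were 20.4% and 25.2%. By medians of the cells 48 were lower, and without a minimum mean 95 of 378 ZNF genes were higher and 64 lower. Neither count was taken over the background, so they cannot be read as particular to the ZNF genes. ZNF586, a KRAB gene, read 40.4, 47.2, 61.0, 62.0 and 126 RPKM in the early morula and 0 to 1.37 (median 0.0368) in hatched cells, a log2 ratio of -5.85, and each early morula cell lay above every hatched cell. Hatched cells of letter G held ZNF586 at no more than 0.129. ZNF259 read 191, 192, 237, 237 and 289 in the early morula and 0.135 to 90.2 (median 46.7) after hatching, at -2.27, again without overlap. ZNF219 was listed at 0 in all 5 early morula cells and ran from 0.0555 through 4.97 to 23.8 in the hatched cells. ZNF581 (-1.86) and ZNF395 (2.34) also did not overlap, which makes 2 higher and 3 lower, beside 200 and 260 of the 6434 background genes.

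Of the remaining genes of that comparison, ZNF691 was 3.63 higher after hatching, at 21.5 RPKM (SD 28.4) against 0.824 (1.36), and ZNF559, a KRAB gene, 3.41 higher, at 27.8 (36.3) against 1.70 (2.54). ZNF101 (3.21) and ZNF846 (2.56) had hatched medians near 0, and ZNF879, listed at 0 in the early morula cells, averaged 7.75 (21.1), most of it in the cell H-03. ZNF526 (-2.95), ZNF8 (-2.94), ZNF576 (-2.47) and ZNF16 (-2.38) were lower. ZNF8, a KRAB gene whose product binds SMAD proteins, averaged 27.4 (29.4) in the early morula and was above 0 in 2 of 9 hatched cells.

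Position was examined first before the cavity forms, in 13 outer and 12 inner cells, with equal weight for each of the 3 stages. Outer cells held 14 of the 103 genes higher and 13 lower, with a median of 0.15, beside 11.2% and 8.22% of the background and a median of 0.08. With median-of-ratios size factors the median of the ZNF genes was -0.04 and that of the background 0.12. For no gene were outer and inner cells apart. Higher in outer cells were ZNF282 (2.25), ZNF559 (2.16), ZNF143 (2.02), ZNF670 (1.92), ZNF680 (1.68) and ZNF830 (1.64). ZNF143, an activator of snRNA and many housekeeping genes, stood at 9.31, 10.8, 12.9, 19.9 and 26.0 RPKM in outer early morula cells and at 0.0194, 0.0234, 0.0581, 0.110 and 8.93 in inner ones. That stage did not overlap for ZNF143, while in the late morula no cell passed 0.152. Overlap by position within a single stage was not counted over the background, here or below. ZNF282, a repressor first found on a viral promoter, reads 0.89 without the outer late morula cell D-01, which held 102.

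Lower in outer cells were ZNF205 (-3.54), ZNF219 (-2.88), ZNF524 (-2.28), ZNF846 (-1.33), ZNF511 (-1.32) and ZNF32 (-1.29). ZNF205 read 34.9 and 128 RPKM in the 2 inner cells of the 16-cell stage and 0.280, 1.67 and 8.78 in the 3 outer cells. In the early morula its outer cells were at 0 but for 1 cell at 6.14, and in the late morula no cell passed 0.603. ZNF219 read 5.79 and 16.4 in the inner cells of the 16-cell stage and 0, 0.0965 and 0.249 in the outer ones. ZNF511 differed by position in the late morula, where inner cells read 141, 178, 180, 228 and 528 and outer cells 0.948, 1.28, 1.42, 1.45 and 213. Without 1 late morula cell ZNF846 becomes -0.36 (inner D-10) and ZNF511 -0.95 (inner D-01), and ZNF32 becomes -0.80 without the inner 16-cell cell B-02. ZNF286A changed direction with stage: its outer cells (4.04, 5.55 and 6.60 RPKM) lay below its inner cells (8.11 and 12.0) at the 16-cell stage, while in the early morula it was listed at 0 in all 5 inner cells and read 0.0416, 4.12, 7.59, 8.20 and 19.0 in the outer ones.

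In blastocysts, outer and inner cells of the same letter (A in the early, B in the middle blastocyst, with equal weight) gave 22 genes higher and 27 lower in the 11 outer cells, with a median of -0.03. The background had 22.4% higher and 19.1% lower, with a median of 0.01, and no gene was without overlap. With median-of-ratios size factors 32 were higher and 22 lower, beside a background median of 0.40. ZNF32 was higher in outer cells (5.10), with outer early blastocyst cells at 0.0548, 0.1, 0.399, 5.88, 43.4 and 371 RPKM, inner ones no higher than 0.193, and the 5 outer middle blastocyst cells at 0. Without the cell A-09 ZNF32 is at 2.51. ZNF331, imprinted in humans, was 3.86 higher, with outer early blastocyst cells up to 132 and inner ones up to 0.115, and is at 2.18 without the outer cell A-02. ZNF282 was 2.79 higher and kept 1.98 without its highest cell. ZNF846 was listed at 0 in all 11 outer cells and above 0 in 6 of 9 inner cells, at most 89.8.

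Several other differences by position moved with 1 cell. ZNF692 (3.35) turns to -2.16 without the outer middle blastocyst cell B-03, at 661 RPKM. ZNF691 (-4.65) and ZNF576 (-2.87) turn to 0.44 and 0.33, and ZNF22 (-3.75) becomes -0.34, without the inner early blastocyst cell A-08. ZNF830 (3.13) becomes 0.57 without the outer middle blastocyst cell B-01, and ZNF689 (2.35) becomes 0.64 without the outer early blastocyst cell A-10. ZNF398 (-3.52) keeps -1.17 without the inner early blastocyst cell A-03. ZNF8 (-3.07), which keeps -2.33 with any 1 cell left out, was lower in outer cells of the middle blastocyst, where 3 of 4 inner cells read 13.6, 15.8 and 41.5 and outer cells at most 1.22.

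Lineage was taken from clusters of the 70 blastocyst cells, made without any ZNF gene and named by markers. In the late blastocyst of letter G this gave 5 trophectoderm-like, 7 epiblast-like and 3 hypoblast-like cells. In hatched cells the 8 trophectoderm-like cells and the 1 hypoblast-like cell carried letter G and the 9 epiblast-like cells letter H. All these late and hatched cells are titled inner, the trophectoderm-like ones included. The summed level of 12 epiblast markers ran from 7127 to 13587 RPKM in the late epiblast-like cells and from 0.0496 to 95.7 in the trophectoderm-like cells, and that of 15 hypoblast markers from 5463 to 10846 in the hypoblast-like cells. The 5 late trophectoderm-like cells are all among the 9 whose source name says hatched. The 7 late epiblast-like and 3 late hypoblast-like cells carry a source name of the late blastocyst. In the late trophectoderm-like comparison, lineage and the stage of the source name therefore cannot be told apart.

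In the late blastocyst, trophectoderm-like cells held 22 of the 103 genes higher and 44 lower than epiblast-like cells, with a median log2 ratio of -0.48. In the background 25.6% were higher and 29.1% lower, and the median was -0.06. The number of ZNF genes at 1 RPKM or more had a median of 27 in trophectoderm-like and 41 in epiblast-like cells, and the number of all genes a median of 3155 and 4102. COL1A2, a collagen gene on a list of fibroblast markers, averaged 55.4 in epiblast-like, 72.0 in hypoblast-like and 0.0196 in trophectoderm-like cells. The part of these differences in the counts was not tested. ZNF598 was the 1 gene without overlap, beside 85 higher and 121 lower of the 6434 background genes. It read 0, 9.10, 10.1, 13.9 and 14.7 RPKM in trophectoderm-like cells and 19.9 to 31.5 (median 26.8) in epiblast-like cells, a log2 ratio of -1.38. In hatched cells it overlapped, at -0.36. ZNF410, which activates the chromatin remodeller gene CHD4, was the furthest higher (5.66), at 0, 0.0218, 28.4, 69.4 and 155 in trophectoderm-like cells and at most 0.0725 in the 7 epiblast-like cells. ZNF622 was 2.69 higher, at 54.3 (SD 47.0) against 7.59 (12.7). ZNF124 (4.10) and ZNF576 (3.84) were carried by few cells, and ZNF680 and ZNF256 (3.02 and 2.66) become -0.02 and -0.17 without the cells G-27 and G-04.

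Among the genes lower in late trophectoderm-like cells, ZNF8 was at most 0.299 RPKM in the 5 trophectoderm-like cells, while 4 of the 7 epiblast-like cells read 32.7, 38.9, 40.7 and 56.1 and the other 3 no more than 0.0636, a log2 ratio of -4.55. ZNF584, a KRAB gene, read 0, 0, 0.0272, 0.0275 and 3.64 against 0.0263 to 145 (median 0.180), at -4.36. ZNF239 (-4.68), ZNF613 (-5.05) and ZNF23 (-4.44) drew most of their epiblast mean from the cell G-20, without which they are -3.48, -2.72 and -1.90. ZNF16 was listed at 0 in the 5 trophectoderm-like cells and was above 0 in 5 of 7 epiblast-like cells. By medians of the cells in place of means, the counts fall to 9 higher and 22 lower, with no background count by medians.

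Hypoblast-like cells, 3 in number, were set beside the same 7 epiblast-like cells, so the 2 comparisons share that side. Of the 103 genes, 21 were higher and 45 lower (median -0.65), beside 24.3% and 34.0% of the background and a median of -0.19. By medians of the cells the counts were 12 and 17, with no background count by medians. ZNF358 read 50.8, 58.5 and 83.5 RPKM in the hypoblast-like cells and at most 0.472 in the epiblast-like cells, a log2 difference of 5.93 without overlap. It was listed at 0 in 4 of the 5 trophectoderm-like cells of the same letter. In the background, 220 genes were higher and 242 lower without overlap. ZNF394 was the other ZNF gene of this kind, at 0.0234, 0.0517 and 0.109 against 0.298 to 81.3 (median 12.8). ZNF330, a nucleolar and centromeric protein, read 0.0988, 0.125 and 0.226 against 0.0711 to 143 (median 7.52), at -5.38. ZNF584 (-5.11) and ZNF669 (-4.86) were lower too, and ZNF695, ZNF239 and ZNF8 were listed at 0 in all 3 hypoblast-like cells and above 0 in 6 of 7 epiblast-like cells. ZNF564 was 4.15 higher, or 2.20 without the cell G-12. ZNF410 (6.10), ZNF7 (4.99) and ZNF331 (3.53) each come from the cell G-12 and ZNF823 (3.34) from the cell G-17, without which they are -0.03, -0.89, -0.28 and -0.33.

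After hatching, in a comparison added once the clusters were seen, the 8 trophectoderm-like cells of letter G held 13 of the 103 genes higher and 34 lower than the 9 epiblast-like cells of letter H, with a median log2 ratio of -0.36. The background had 19.7% higher and 19.9% lower, with a median of 0.00. With median-of-ratios size factors the split was 5 higher and 37 lower, beside a background median of -0.30. Lineage and letter cannot be told apart here. The number of ZNF genes at 1 RPKM or more was similar on both sides, with a median of 58 against 61, and the number of all genes was 6225 against 5746. A list of 5 fibroblast genes also differed, with a summed level of 88.0 to 417 RPKM in the epiblast-like and 0 to 1.93 in the trophectoderm-like cells. It came almost wholly from COL1A2, with COL1A1 at a mean of 0.786, and its part in the result was not tested.

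ZNF121 had the largest difference in hatched cells. It was listed at 0 in 7 of the 8 trophectoderm-like cells and at 1.08 RPKM in the other, and ran from 0 through 5.25 to 97.4 in the epiblast-like cells, a log2 ratio of -5.08. ZNF878, a KRAB gene, stood at 0 to 2.90 (median 0.0141) against 0 to 107 (median 39.1), at -4.46. ZNF701 ranged up to 202 in epiblast-like cells, with a mean of 84.2 (SD 61.8) against 7.41 (9.65), at -3.34. ZNF57 (-3.77) and ZNF101 (-2.64) were lower too, and ZNF879, at 0 in all 8 trophectoderm-like cells, rests on the cell H-03. ZNF330 was higher in trophectoderm-like cells, at 18.3 to 81.0 (median 52.5) against 0 to 32.9 (median 0.521), a log2 difference of 2.52. ZNF410 was 1.63 higher, at 5.82 to 70.1 (median 27.1) against 0.0482 to 42.5 (median 2.87), and ZNF282 1.53 higher, at 4.63 to 48.1 (median 11.8) against 0.0162 to 25.1 (median 3.68). ZNF670 (1.78), ZNF358 (1.76) and ZNF213 (1.40) complete the 6. No ZNF gene was without overlap in hatched cells, beside 104 higher and 134 lower in the background.

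The late and the hatched comparison of trophectoderm-like with epiblast-like cells share no cell. By source name the trophectoderm-like cells of both are hatched, so the 2 comparisons need not stand for 2 stages. Of the 44 genes lower in the late and the 34 lower in the hatched blastocyst, 16 were lower in both, which is 36.4% and 47.1% of the lists. Over the background the shares were 36.6% and 53.6%. Among the 22 and 13 higher genes, 8 were higher in both (36.4% and 61.5%), beside 39.9% and 51.7%. Another 4 genes went from higher to lower and 3 from lower to higher. ZNF584, ZNF239, ZNF16, ZNF121 and ZNF878 were among those lower in both, and ZNF410, ZNF282, ZNF358 and ZNF124 among those higher in both, while ZNF330 stood at -2.10 in the late and at 2.52 in the hatched blastocyst, and ZNF92 at 2.00 and -1.46.

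**Figure D4:**
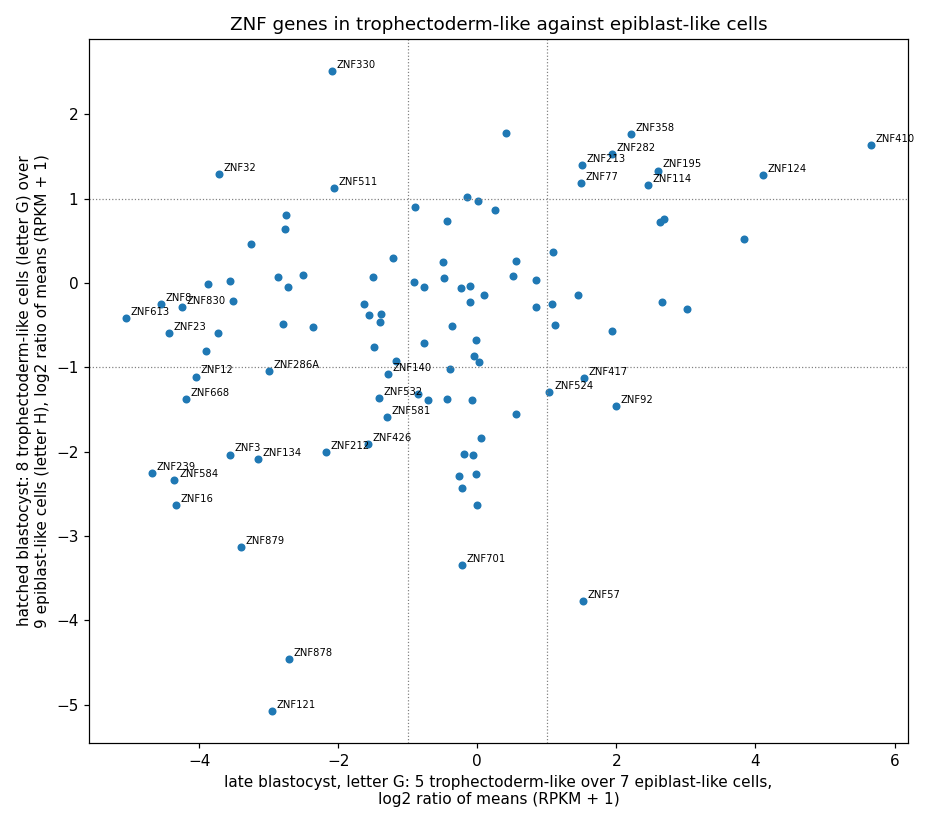
Log2 ratio of trophectoderm-like over epiblast-like cells for each ZNF gene, in the late blastocyst (x axis, 5 and 7 cells of letter G) and in the hatched blastocyst (y axis, 8 letter G and 9 letter H cells), with dotted lines at 2-fold. ZNF121, ZNF878, ZNF239 and ZNF584 lie low on both axes, ZNF410 high on both, and ZNF330 in the upper left.

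The genes were also grouped by role. Of a list of 12 ZNF genes of RNA, ribosome and translation work, 6 reached the level (ZNF593, ZNF622, ZNF598, ZNF330, ZNF830 and ZNF259). In the early morula against the 16-cell stage 0 of the 6 were higher and 1 lower, and in the late against the early morula 2 were higher and 2 lower. Of 24 listed transcription factors without a KRAB box, 10 reached the level, of which 7 were higher and 3 lower in the early morula, and 2 higher and 7 lower in the late morula (medians 2.01 and -2.82). Over all genes at the level, 44.2% were higher and 21.0% lower in the early morula, and 20.9% and 47.0% in the late morula, where the direction depends on scaling as given above. ZNF131 (2.60 and -3.31), ZNF143 (2.61 and -3.22), ZNF24 (2.48 and -2.69) and ZNF217 (3.64 and -4.75) were higher and then lower, while ZNF276 (-1.99 and 1.61) and ZNF219 (-1.93 and 2.62) went the other way. In late trophectoderm-like against epiblast-like cells 1 of the 6 RNA and ribosome genes was higher (ZNF622) and 4 were lower. Over all genes at the level 25.6% were higher and 29.1% lower there. Of 6 listed genes of chromosome segregation and genome stability, ZNF207 and ZNF668 reached the level. Of 8 listed genes of imprinting and retroelement control, 4 were in the table and 0 reached the level. These lists are small, and the comparisons share the early morula cells.

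Genes that work with KRAB proteins were read as a list of 28, of which 25 were in the table and 21 reached the level, among them SETDB1 (the methyltransferase of silenced chromatin), CBX1, CBX3 and CBX5 (heterochromatin proteins) and CHD4. The co-repressor gene TRIM28 was on the list but not among the 21, so it is not in the counts. Of the 21, 11 were higher and 3 lower in the early morula than at the 16-cell stage, and 1 was higher and 17 lower in the late than in the early morula, with medians of 1.52 and -1.93, beside 44.2% higher and 21.0% lower, then 20.9% and 47.0%, over all genes at the level. The late morula count of these partners turns to 8 higher and 3 lower with median-of-ratios size factors (median 0.64). From the early morula to the hatched blastocyst of letter H 7 were higher and 3 lower, beside 22.3% and 22.1% of all genes at the level. Late trophectoderm-like cells held 4 higher and 8 lower than epiblast-like cells, beside 25.6% and 29.1%. Late hypoblast-like cells held 3 and 6, beside 24.3% and 34.0%. Hatched trophectoderm-like cells held 1 and 6, beside 19.7% and 19.9%.

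**Figure D5:**
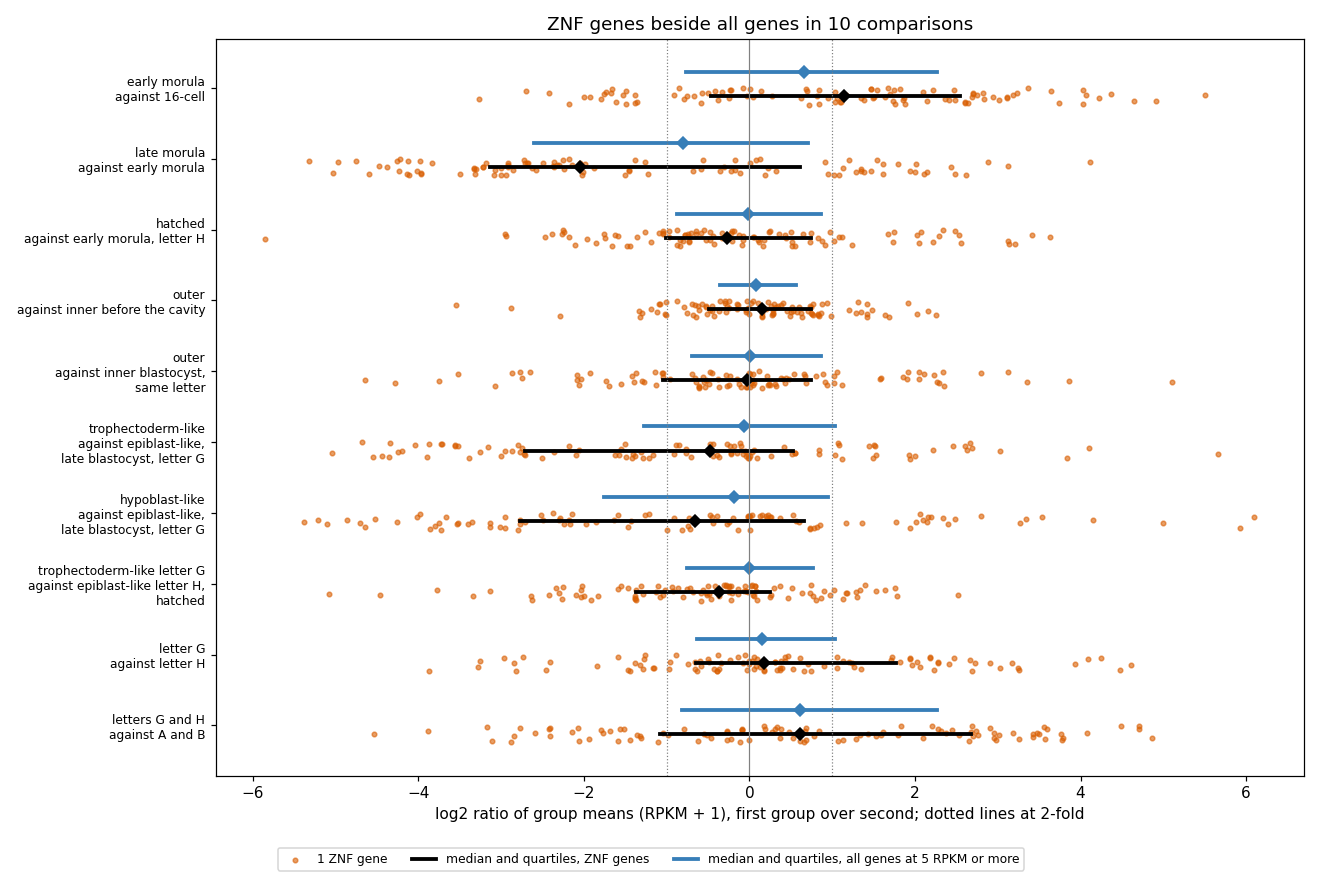
Log2 ratios of group means (x axis, RPKM + 1) in the 10 comparisons (rows), with 1 orange point per ZNF gene, and the median and quartiles of the 103 ZNF genes (black) and of the 6434 genes with a mean of 5 RPKM or more (blue). The ZNF median lies furthest from the background median in the late against the early morula (-2.04 and -0.81), and the 2 nearly coincide for letters G and H against A and B (both 0.61).

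Some of the genes lie next to each other. In the RefSeq gene order of the rhesus macaque (assembly T2T-MMU8v2.0, used for names and order), 96 of the 103 symbols were found, and 17 of them form 7 runs of directly adjacent genes, such as ZNF669, ZNF670 and ZNF695, or ZNF560, ZNF426 and ZNF121, or ZNF274, ZNF544 and ZNF8. Over the 95 cells the 10 adjacent pairs had a median Spearman rho of 0.21, against 0.12 over all 5253 pairs of the 103 genes. The highest of the 10 was 0.33, for ZNF426 and ZNF121, and the lowest 0.06, for ZNF576 and ZNF428. All pairs share libraries, depth and letters, and neighbouring copies can share reads.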

How the data were processed

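Single-cell cDNA was poly(A)-tailed, amplified by PCR and sequenced as 100-bp single-end reads, per the labels' protocols, which mention no molecular identifiers. The submitters' processing notes list FastQC, TopHat2 2.1.0, HTSeq and DESeq2. Genome build, annotation and the handling of reads with several matches are not given in the sources used here. The authors deposited 1 table of 16049 genes by 95 cells whose values are RPKM, reads scaled by gene length and by depth, as inferred from the values, since no header names the unit. The steps of the values gave whole reads (tolerance 0.05) for 69.7% of genes, and from them the depth of each cell. Since groups have 1 sample each, no count test was run.

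Groups were compared by log2((mean + 1)/(mean + 1)) in RPKM, with equal weight per stage where outer and inner cells were compared, and counted at 2-fold. In the comparisons of letters the cells of both stages were pooled without weights. The 70 blastocyst cells were clustered on 1000 variable genes without ZNF genes. The planned 5 clusters left 2 lineages merged in an unnamed cluster, so 6 were used, a choice made after seeing the data. Clusters were named by markers, and doublets were not called. Members, lists and markers were chosen with earlier results of these data known. Named genes are the 12 highest, the 6 furthest each way per comparison, the most and least even, those at the level's edge and role lists. Others named were chosen after their values were seen. Scripts were tested on simulated data. Median-of-ratios size factors used genes above 0 in at least 10 cells, with logs summed over cells above 0 and divided by all cells. Alternatives were other scalings, the median, depth weights, a pseudocount of 0.1, no level, and cells left out. Python 3.11.15, numpy 2.4.6, pandas 2.3.3, scipy 1.17.1 and matplotlib 3.10.9 were used.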

Additional observations from a re-analysis of the deposited data

Results flagged for a closer look

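For the 12 most abundant ZNF genes and 2 summary measures, each group of 4 to 10 cells of 1 stage, position and letter was examined. In 28 of the 182 pairs of measure and group (15.4%), 1 cell had a gap to the next that was large for the range of its group. The cut flags about 1 in 20 groups of normally distributed values. Single-cell levels are skewed (ZNF414 has a mean of 42.3 and a median of 7.90 RPKM), so no excess over chance can be read from this share. No explanation was examined.

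In the early blastocyst, outer cell A-10 stood apart for ZNF581 (1214 RPKM) and ZNF598 (195.9), outer cell A-08 for ZNF414 (82.92) and ZNF622 (21.41), and outer cell A-02 for ZNF669 (160.2) and ZNF408 (75.07). Inner cell A-07 stood apart for ZNF706 (544.4) and ZNF669 (492.3), A-03 for ZNF408 (74.08) and A-08 for ZNF414 (119.4). In the middle blastocyst the cells were outer B-01 for ZNF207 (194.4), outer B-02 for ZNF408 (280.8), outer B-03 for ZNF598 (201.8), inner B-05 for ZNF706 (73.87), inner G-02 for ZNF574 (12.6), inner H-05 for ZNF408 (136.8) and inner H-10 for ZNF622 (7.133).

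In the early morula, inner cell H-05 stood apart for ZNF581 (790.0), H-03 for ZNF669 (447.0) and H-04 for ZNF511 (105.8), and H-04 had a summed level of the 103 genes of 2756 RPKM, below the other inner cells. Late morula cells were inner D-01 (528.3) and outer D-06 (213.2) for ZNF511 and inner D-04 for ZNF207 (24.22). The late blastocyst gave H-09 for ZNF408 (16.15), and hatched cells gave G-14 for ZNF259 (148.3), H-15 for ZNF669 (212.7) and H-01 for ZNF414 (34.86).

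ZNF286A differed by position in opposite directions, without overlap of outer and inner cells. Its log2 ratio was -0.79 in the 16-cell stage, and in the early morula the outer cells averaged 7.80 RPKM while the inner cells were listed at 0. The 16-cell stage has 3 outer and 2 inner cells, and the search was not run over the background. The difference between the stages was not tested.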

How the results depend on the processing

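No paired analysis was possible because the results come from no test and title numbers only name cells. Counts stayed within 1.5 times under depth weights, a pseudocount of 0.1 RPKM, factors over 1159 genes above 0 in all cells, and without cells under 4 megareads, in each comparison where these were run. Cells with conflicting stage labels could not be left out of the late trophectoderm-like comparison, since they are all of its cells. Depth limits low values, and 19.7% of the values of the 101 genes with recovered reads rest on 1 to 10 reads. The cause of the changes that follow was not tested.

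With median-of-ratios size factors the higher and lower counts became 34 and 28 in the early morula against the 16-cell stage and 42 and 33 in the late against the early morula, the higher count became 5 in hatched trophectoderm-like against epiblast-like cells, and the lower count 47 for letters G and H against A and B. With the reference of these factors taken over the cells where a gene is above 0, chosen after seeing the data, those 6 counts were 36, 28, 42, 34, 5 and 47. Over the 95 cells these factors had a Spearman rho of 0.93 with the number of genes at 1 RPKM or more, as a description. The median of the cells gave 13 higher in the late morula, 48 lower in hatched against early morula cells, 24 higher in outer cells before the cavity and 9 higher in outer blastocyst cells. It gave 9 higher and 22 lower for late trophectoderm-like, 12 and 17 for hypoblast-like, 22 higher for hatched trophectoderm-like cells, 22 higher for letter G against H, and 23 and 15 for letters G and H against A and B.

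With no minimum mean, 378 ZNF genes gave 166 higher and 40 lower in the early morula against the 16-cell stage, 39 and 191 in the late morula, 95 and 64 in hatched against early morula cells, 48 and 27 in outer cells before the cavity and 45 and 57 in outer blastocyst cells. The lineage comparisons gave 46 and 94 (late trophectoderm-like), 49 and 102 (hypoblast-like) and 42 and 123 (hatched). Letter G against H gave 83 and 62, and G and H against A and B 121 and 57. This alternative tests more genes. Neither this alternative nor the median of the cells was run over the background.

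Leaving out each cell in turn, the higher and lower counts ran over 54 to 58 and 17 to 20 (early morula), 21 to 25 and 61 to 64 (late morula), 18 to 25 and 22 to 31 (hatched against early morula), 12 to 20 and 9 to 15 (outer cells before the cavity), 19 to 25 and 24 to 29 (outer blastocyst cells), 18 to 22 and 41 to 51 (late trophectoderm-like), 17 to 24 and 42 to 57 (hypoblast-like), 11 to 16 and 30 to 36 (hatched trophectoderm-like), 31 to 39 and 18 to 24 (letter G against H), and 42 to 49 and 23 to 30 (G and H against A and B). Of 120 named pairs of gene and comparison, 92 kept 2-fold, 17 fell under it and 11 changed sign.

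The sign changes, as the range over cells left out, were -2.16 to 4.43 for ZNF692, -5.42 to 0.44 for ZNF691 and -4.15 to 0.33 for ZNF576 in outer blastocyst cells. In late trophectoderm-like cells they were -0.0195 to 3.31 for ZNF680 and -0.17 to 4.52 for ZNF256. In hypoblast-like cells they were -0.0259 to 6.67 for ZNF410, -0.89 to 5.57 for ZNF7, -0.28 to 4.08 for ZNF331 and -0.33 to 3.88 for ZNF823. For letters G and H against A and B they were -3.75 to 0.22 for ZNF576 and -3.79 to 2.36 for ZNF691.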
